A study of Mus musculus with 9 samples.

Results

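The genes described here encode the subunits of the mitochondrial respiratory chain and the ATP synthase, together with some of their assembly factors. Members were protein-coding genes of the FPKM table whose symbol started with mt-Nd, mt-Co, mt-Cyt, mt-Atp, Ndufa, Ndufb, Ndufc, Ndufs, Ndufv, Uqcr, Atp5 or 1 of the names Cox4 to Cox8, or was Sdha, Sdhb, Sdhc, Sdhd or Cyc1. The rule found 108 members among 54532 genes, of which 22046 were protein-coding. 13 members are encoded by the mitochondrial genome and 95 by the nucleus. FPKM scales the fragments of a gene by its length and by the library size, so it is a level per gene length.

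The study sequenced poly-A RNA of monocytic myeloid-derived suppressor cells (M-MDSC, immature monocytes that restrain T cells) sorted from mouse tumours. All mice carried MC38 tumours, grown from a mouse colon carcinoma line. There were 3 libraries each from WT mice, from LILRB4+/+ mice and from LILRB4+/+ SCG2-/- mice, called SCG2-/- below. LILRB4 is an inhibitory receptor of myeloid cells, and SCG2 encodes secretogranin II, a secreted granule protein. The labels do not describe the LILRB4 allele, the sorting gate or the animal behind each library. P-values therefore reflect how far these samples differ among themselves, possibly for technical reasons, and SCG2-/- libraries carry the same LILRB4 genotype as the LILRB4+/+ libraries. In such bulk RNA, a smaller share of a cell type and less RNA per cell cannot be told apart.

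The respiratory chain passes electrons from NADH and succinate to oxygen through complexes I to IV, and the ATP synthase uses the resulting proton gradient to make ATP. Mitochondrial DNA encodes a small set of hydrophobic core subunits, which are transcribed as long polycistronic RNAs and cut into mRNAs. The nucleus encodes all other subunits and the assembly factors, so each mixed complex needs products of both genomes. Activated and immunosuppressive myeloid cells are known to shift between glycolysis and respiration.

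By complex, 43 members belong to complex I (7 mitochondrial and 36 nuclear), 8 are complex I assembly factors named Ndufaf, 4 form complex II, 10 complex III, 23 complex IV and 19 the ATP synthase. The last member, Atp5s, is known as coupling factor B. Ndufa4 and Ndufa4l2 were placed with complex IV, where NDUFA4 is now known to sit. The table of deposited counts, which holds 9877 genes, contained 89 members (10 mitochondrial and 79 nuclear). The other 19 members appear in the FPKM table only, among them mt-Nd3, mt-Nd4l and mt-Atp8. Of its genes, 9876 were protein-coding with at least 100 recovered counts in both LILRB4+/+ replicates 1 and 3, and no other gene met that rule, so genes low in those libraries are almost wholly outside it. Totals of the count table ran from 14501163 to 27219202 per library. Of the 14 monocyte and M-MDSC marker genes listed for this check, 14 had a mean of 1 FPKM or more, and so had 23 of 23 T and NK cell markers. Scg2, the targeted gene, lay between 0 and 0.0242 FPKM in all 9 libraries, WT included, so its level does not check the knockout labels. Lilrb4a, the mouse gene of the receptor, was at 138, 47.7 and 74.0 FPKM in WT, at 274, 154 and 160 FPKM in LILRB4+/+ and at 131, 146 and 157 FPKM in SCG2-/-.

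Part of the mitochondrial sequence has an identical twin in the nuclear genome, which matters for reading the values. 5 of the 13 mitochondrial members (mt-Co2, mt-Atp6, mt-Co3, mt-Nd3 and mt-Nd4l) matched an annotated pseudogene on chromosome 1 with 0 mismatches over at least 90% of the gene. They lie in a block at chr1:24611535-24616197 on the minus strand of GRCm38. The first lines below show the start of mt-Co2, the gene of cytochrome c oxidase subunit II (MT:7013-7072, plus strand), and the start of its copy Gm28661 (chr1:24615506-24615565, minus strand), which carry the same letters. The next shows mt-Nd4 (MT:11013-11072, plus strand) at the point where its copy Gm28439 stops (chr1:24611535-24611564), with capitals marking the bases also in the copy. The last is the start of mt-Nd6 (MT:14011-14070, minus strand), the only protein gene on the other strand of mitochondrial DNA, for which no such copy was found.
mt-Co2: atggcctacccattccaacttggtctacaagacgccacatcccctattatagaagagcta
Gm28661: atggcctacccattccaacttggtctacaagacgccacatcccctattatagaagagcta
mt-Nd4: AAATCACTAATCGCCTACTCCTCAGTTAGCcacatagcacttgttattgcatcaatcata
mt-Nd6: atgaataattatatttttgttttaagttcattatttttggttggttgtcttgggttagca

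The copy of mt-Nd4 covers bases 1 to 876 of 1378. That of mt-Co1, Gm29216, covers bases 1063 to 1545 and differs by A1066T, with the gene's base first and positions counted from 1 at its start. mt-Nd1, mt-Nd2, mt-Nd5, mt-Nd6, mt-Cytb and mt-Atp8 had no such match among annotated transcripts. Of the reads assigned to mt-Co2 or Gm28661, 34.9% to 44.2% per library were assigned to the pseudogene. For mt-Atp6 and its copy the share was 43.6% to 53.7%, and for mt-Co3 38.0% to 47.3%. For mt-Nd4 it was 0.661% to 2.68% and for mt-Co1 0.403% to 0.960%. How the authors' counting treated reads that match both places is not given in the sources used here, so the values of the 5 copied genes are uncertain. Those of mt-Nd4 and mt-Co1, copied in part, are uncertain over the copied bases. Among the nuclear members, 17 of 95 shared at least 98% identity over 100 bases or more with another annotated gene, 12 of them over more than 50% of a transcript. Atp5g2, Atp5h, Cox5b, Ndufs5, Ndufab1 and Uqcrb are among those 12, and their values are uncertain for the same reason.

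As a sum, the mitochondrial members stood higher in LILRB4+/+ libraries than in both other groups, while the nuclear members did not. CPM values below are deposited counts scaled to library size with edgeR's TMM factors. Summed over the 10 mitochondrial members, the level was 10137, 9971 and 6599 CPM in WT, 12611, 19017 and 11575 CPM in LILRB4+/+, and 5081, 9082 and 11043 CPM in SCG2-/-. With this scaling the 3 LILRB4+/+ libraries were the 3 highest, and LILRB4+/+ replicate 2 stood above the rest. The ranking depended on the TMM factors. As a plain percentage of the deposited counts, LILRB4+/+ replicate 3 (1.082%) lay below SCG2-/- replicate 3 (1.157%) and just above WT replicate 1 (1.078%). Summed over the 79 nuclear members, the level was 6933, 9525 and 7118 CPM in WT, 5920, 7304 and 7941 CPM in LILRB4+/+, and 8358, 6665 and 5746 CPM in SCG2-/-. Here the 3 groups overlapped, with WT replicate 2 highest. The ratio of the mitochondrial to the nuclear sum was 1.15 ± 0.281 in WT, 2.06 ± 0.576 in LILRB4+/+ and 1.30 ± 0.659 in SCG2-/- (SD, n = 3 each). Per library it was 1.46, 1.05 and 0.927 in WT, 2.13, 2.6 and 1.46 in LILRB4+/+, and 0.608, 1.36 and 1.92 in SCG2-/-, so the groups touch or overlap. mt-Co1 alone made up 54.0% to 61.9% of the mitochondrial sum.

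**Figure D1:**
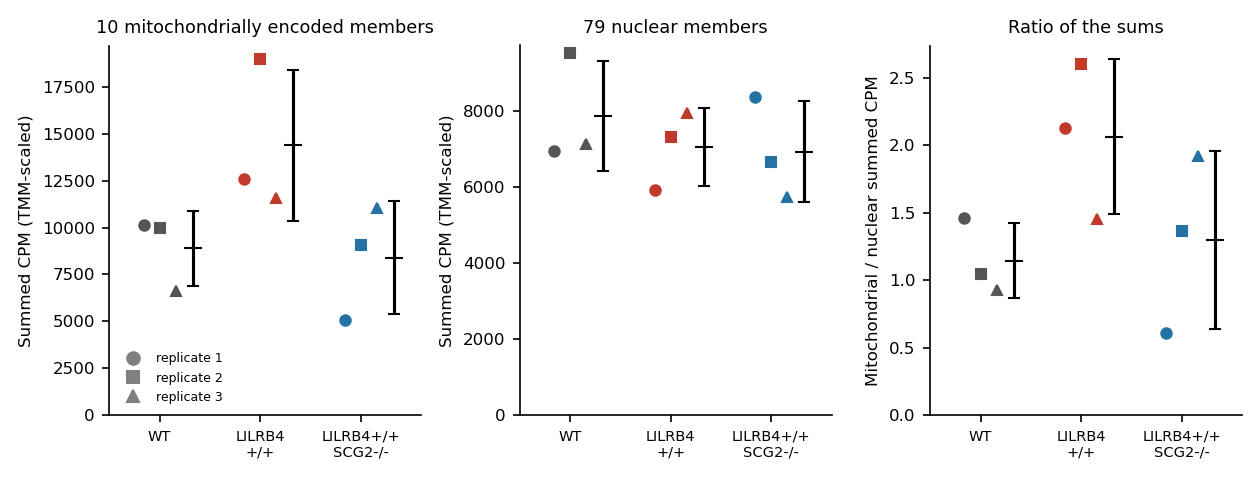
Summed CPM of the 10 mitochondrially encoded and the 79 nuclear members of the count table, and the ratio of the sums, for each of 9 libraries (points, shaped by replicate number) with the mean and SD of each group beside them. With TMM scaling the LILRB4+/+ libraries run from 11575 to 19017 CPM for the mitochondrial sum, above all others. The nuclear sums of the groups overlap.

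Between genes, levels were compared per annotated gene length, so their ranking depends on that length. mt-Co1, the catalytic subunit of complex IV, was the highest member at a mean of 3806 FPKM over 9 libraries. mt-Cytb, the mitochondrial subunit of complex III, followed at 1225 FPKM and mt-Nd1 of complex I at 995 FPKM. mt-Nd2 and mt-Nd4 had means of 484 and 461 FPKM, mt-Nd5 of 282 and mt-Nd6 of 273. The 3 copied genes of the count table were lower: mt-Co2 had a mean of 103 FPKM, mt-Atp6 of 91.8 and mt-Co3 of 79.9. mt-Nd3 (18.5 FPKM), mt-Nd4l (6.68) and mt-Atp8 (0.439) were lower still. mt-Atp8 shares 21.1% of its bases with mt-Atp6 on the same strand. How reads in shared bases were counted is not given, so the level of mt-Atp8 is uncertain. mt-Co2, mt-Atp6 and mt-Co3 lie next to mt-Co1 in gene order, as the plot by gene order shows, and their level moved with that of the chromosome 1 pseudogenes. The 7 pseudogenes together had 192, 268 and 142 CPM in WT, 153, 525 and 139 CPM in LILRB4+/+, and 108, 133 and 144 CPM in SCG2-/-, on counts recovered from FPKM. The 3 copied genes together had 201, 305 and 152 CPM, then 137, 526 and 104 CPM, then 112, 127 and 145 CPM in the same order. Both sums were highest in LILRB4+/+ replicate 2 and next highest in WT replicate 2, and the part of the pseudogenes in the members' values was not tested.

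**Figure D2:**
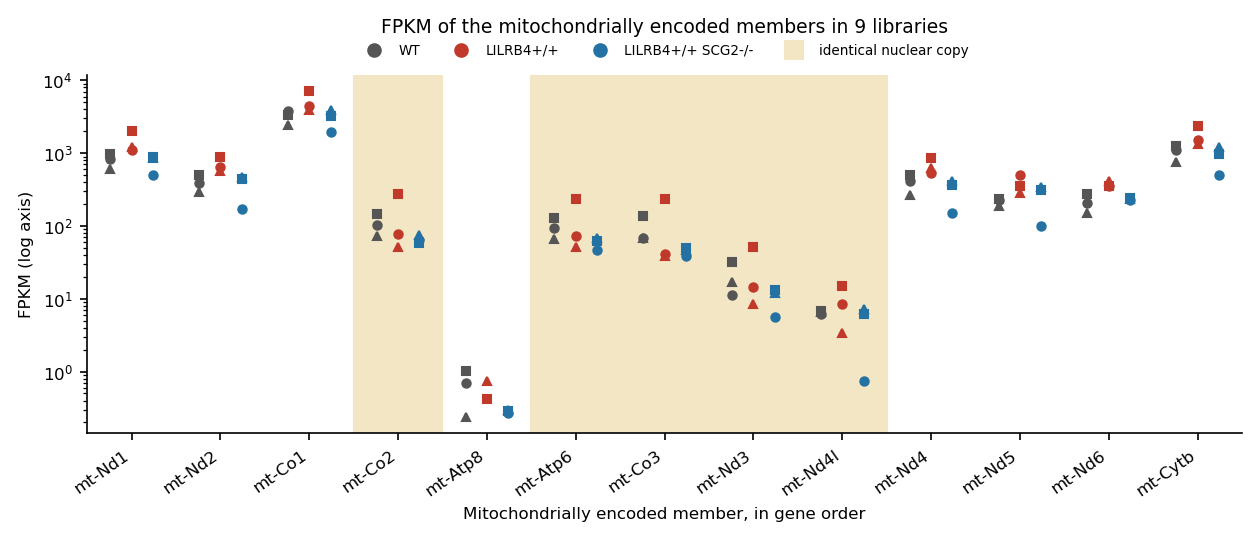
FPKM (log axis) of the 13 mitochondrially encoded members in the order of their genes, for 9 libraries coloured by group and shaped by replicate number; shading marks the 5 genes with an identical nuclear copy, and 1 library with mt-Atp8 at 0 has no point there. mt-Co1 stands highest at 1929 to 7159 FPKM, and all shaded genes lie below mt-Co1, mt-Nd4, mt-Nd5, mt-Nd6 and mt-Cytb in their means, though above mt-Atp8.

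In the comparison of LILRB4+/+ with WT, which asks what differs with the LILRB4 genotype, 10 of 10 mitochondrial members had positive log2 fold changes, with a median of 0.72. 72 of 79 nuclear members had negative ones, with a median of -0.16, and the median of all 9877 genes was -0.02. By edgeR's quasi-likelihood test with Benjamini-Hochberg adjustment over all genes, 0 members passed at 0.05, where 2.25% of all genes did. At an unadjusted p under 0.05, 3 members were higher, all mitochondrial, and 0 were lower. 11.3% of all genes were higher at that level. DESeq2 called 2 members higher (mt-Nd6 and mt-Nd1), where it called 6.2% of all genes higher. limma on log2(FPKM + 1) called 0 members, against 0.821% of all genes. Recovered counts with no filter called 1 member higher, mt-Nd6, against 1.65% of genes. Taken over all members, mitochondrial and nuclear together, the share called was below each of these backgrounds. Every call was of a mitochondrial member. Among the 10 mitochondrial members alone, 3 had an unadjusted p under 0.05 by edgeR and DESeq2 called 2, larger shares than 11.3% and 6.2%. These calls come from the same libraries, and LILRB4+/+ replicate 2 was the highest for 8 of the 10 members in CPM. The calls are not independent, so the larger shares are not a test of these members.

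mt-Nd6, a complex I subunit, came nearest to the threshold. It was at 204, 274 and 151 FPKM in WT, at 359, 352 and 413 FPKM in LILRB4+/+, and at 228, 242 and 234 FPKM in SCG2-/-. All 3 LILRB4+/+ libraries were above all 6 others, and the SCG2-/- libraries lay within the WT range. Its log2 fold change in LILRB4+/+ against WT was 0.81 (SE 0.20), with an adjusted p of 0.0557 by edgeR, and the adjusted p was between 0.00305 and 0.164 over the alternatives. mt-Nd1 was at 825, 987 and 603 FPKM in WT, at 1102, 1988 and 1213 FPKM in LILRB4+/+, and at 495, 874 and 868 FPKM in SCG2-/-. Again the LILRB4+/+ libraries were the 3 highest, with a log2 fold change of 0.80 (SE 0.29) against WT and an adjusted p of 0.146 by edgeR. mt-Nd2, another membrane subunit of complex I, was at 395, 497 and 294 FPKM in WT, at 641, 885 and 569 FPKM in LILRB4+/+ and at 169, 437 and 465 FPKM in SCG2-/-. Its log2 fold change against WT was 0.78 (SE 0.35), with an adjusted p of 0.220 by edgeR.

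The other genes without an identical full-length copy had similar estimates that did not pass the test. mt-Co1 was at 3742, 3387 and 2423 FPKM in WT, at 4510, 7159 and 3972 FPKM in LILRB4+/+, and at 1929, 3213 and 3920 FPKM in SCG2-/-. The lowest LILRB4+/+ library exceeded the highest WT library by less than the spread within either group, and the log2 fold change was 0.67 (SE 0.32). mt-Cytb was at 1103, 1265 and 762 FPKM in WT, at 1500, 2358 and 1347 FPKM in LILRB4+/+ and at 499.6, 971 and 1219 FPKM in SCG2-/-, with a log2 fold change of 0.70 (SE 0.34) between the first pair of groups. mt-Nd4 had 0.74 (SE 0.36) and mt-Nd5 0.78 (SE 0.40) on the same log2 scale. mt-Nd5 was at 225, 233 and 190 FPKM in WT, at 496, 355 and 283 FPKM in LILRB4+/+ and at 98.9, 315 and 343 FPKM in SCG2-/-.

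The copied genes did not show this separation. mt-Co3, a core subunit of complex IV, was at 68.3, 135 and 67.8 FPKM in WT, at 40.9, 233 and 38.2 FPKM in LILRB4+/+ and at 38.6, 49.97 and 46.6 FPKM in SCG2-/-. One LILRB4+/+ library was the highest of all 9 and another the lowest. The log2 fold change of mt-Co3 in LILRB4+/+ against WT was 0.16 (SE 0.66), and without LILRB4+/+ replicate 2 it was -1.21, with an adjusted p of 0.0393 by edgeR. Without that replicate mt-Co3 was the 1 member called lower, where 1.5% of all genes were, and mt-Nd6 the 1 called higher, where 5.48% were. With recovered counts and that replicate left out, mt-Co3 was also the 1 member called lower, against 0.787% of genes. mt-Co2 was at 103, 148 and 72.9 FPKM in WT, at 77.7, 274 and 51.6 FPKM in LILRB4+/+ and at 64.1, 57.9 and 74.2 FPKM in SCG2-/-. Its log2 fold change against WT was 0.27 (SE 0.56), and -0.76 without that replicate. mt-Atp6, the proton channel subunit of the ATP synthase, had 0.25 (SE 0.52) on the log2 scale, and -0.67 without it. The median over these 3 genes was 0.25, and over the 7 other mitochondrial members 0.78. The 7 are not free of copies, since mt-Nd4 and mt-Co1 have partial ones. In all 10 the median was 0.47 without LILRB4+/+ replicate 2.

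In FPKM, the LILRB4+/+ and WT groups did not overlap for 7 of 10 mitochondrial members, all higher in LILRB4+/+ (mt-Co1, mt-Cytb, mt-Nd1, mt-Nd2, mt-Nd4, mt-Nd5 and mt-Nd6), and for 0 nuclear members in that direction. 12.4% of the genes of the count table had all LILRB4+/+ values above all WT values. In the other direction 2 nuclear members were lower without overlap, Ndufs7 and Ndufaf7, against 12.7% of all genes. Ndufs7, a core iron-sulphur subunit of complex I, was at 27, 39.1 and 25.9 FPKM in WT and at 17.5, 25.3 and 24.8 FPKM in LILRB4+/+, and is named here after its values were seen.

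Among nuclear members the smallest p-values in LILRB4+/+ against WT belonged to complex I genes and assembly factors, all with negative estimates. Such genes make up a large part of the nuclear members, most of which had negative estimates. Ndufb4, an accessory subunit, had a log2 fold change of -0.45 (SE 0.21) with an adjusted p of 0.224 by edgeR. Ndufaf2, an assembly factor, had -0.49 (SE 0.23) and Ndufa7 -0.44 (SE 0.21) on the log2 scale. Of the exonic bases of Ndufaf2, 65.6% overlap B230220B15Rik on the other strand, and the strand setting of the counting is not given. Ndufaf7, which methylates a core subunit, had -0.43 (SE 0.21) and Ndufa9 -0.36 (SE 0.19). The 5 nuclear members of smallest p with positive estimates, Cox7c, Uqcrb, Atp5k, Cox5a and Ndufa3, lay between 0.03 and 0.15 with adjusted p of at least 0.733 by edgeR. The positive value of Cox5a rests on a count that differs between the deposited tables, and with counts recovered from FPKM it was -0.15, so it has no direction here. By role, the median log2 fold change was -0.25 for the 7 nuclear core subunits of complex I and -0.18 for its 27 accessory subunits. It was -0.23 for complex II, -0.21 for the nuclear part of complex III, -0.10 for that of complex IV and -0.13 for that of the ATP synthase. These medians are small beside the standard errors of single genes, and the nuclear median moved from -0.16 to 0.04 without WT replicate 2.

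**Figure D3:**
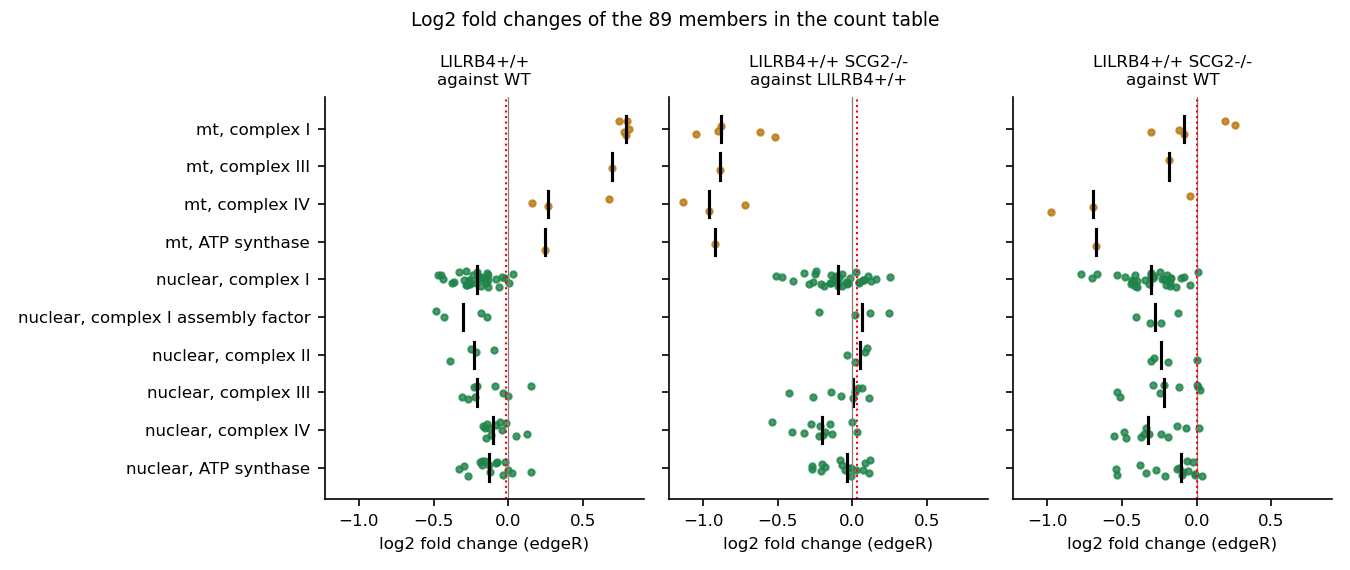
Log2 fold change of each of the 89 members of the count table in 3 comparisons, by genome and complex (black bars are medians, the dotted line the median of all 9877 genes, points shifted vertically for visibility). Mitochondrial members lie at 0.16 to 0.81 in LILRB4+/+ against WT and at -1.13 to -0.52 in SCG2-/- against LILRB4+/+; the direction of mt-Co2, mt-Co3 and mt-Atp6 in both flips without LILRB4+/+ replicate 2.

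The comparison of SCG2-/- with LILRB4+/+, which asks what depends on SCG2 where LILRB4 is shared, uses the same LILRB4+/+ libraries as the first, so the estimates are not independent. 10 of 10 mitochondrial members had negative log2 fold changes, with a median of -0.89, against -0.08 for the 79 nuclear members (53 negative) and 0.03 for all genes. 0 members passed edgeR's test with adjustment, as did 0% of all genes, and DESeq2 and limma also called 0 members, against 1.77% and 0% of all genes. At an unadjusted p under 0.05, 8 members were lower and 0 higher, where 6.18% of all genes were lower. Of the 8, 2 were nuclear, Ndufa3 and Cox5a, and Cox5a rests on counts on which the deposited tables disagree, as described below. The other 6 were mitochondrial: mt-Nd6, mt-Nd1, mt-Nd4, mt-Cytb, mt-Nd2 and mt-Co1. Their log2 fold changes were -0.62 (SE 0.19) for mt-Nd6, -0.88 (SE 0.29) for mt-Nd1 and -1.05 (SE 0.37) for mt-Nd4. mt-Cytb had -0.88 (SE 0.34), mt-Nd2 -0.90 (SE 0.35) and mt-Co1 -0.72 (SE 0.32) on that scale. The smallest adjusted p among them was 0.323 by edgeR, for mt-Nd6.

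The same 6 genes had all SCG2-/- FPKM values below all LILRB4+/+ values (in CPM, mt-Co1 overlapped), as had 2 nuclear members, Cox8a and Ndufa3, where 10.9% of all genes did. 0 members lay higher without overlap, against 6.47% of all genes. mt-Nd4 was at 539, 863 and 626 FPKM in LILRB4+/+ and at 153, 365 and 418 FPKM in SCG2-/-, where replicate 1 was lowest. SCG2-/- replicate 1 was the lowest of all 9 libraries for 7 of 10 mitochondrial members in CPM, and LILRB4+/+ replicate 2 the highest for 8. Without LILRB4+/+ replicate 2 the mitochondrial median was -0.58, and without SCG2-/- replicate 1 it was -0.65. mt-Nd5 had -0.52 (SE 0.39) on the log2 scale, and mt-Co2 (-0.96, SE 0.57), mt-Atp6 (-0.92, SE 0.53) and mt-Co3 (-1.13, SE 0.67) rested on LILRB4+/+ replicate 2. Without it mt-Co2 stood at 0.065, mt-Atp6 at 0.0025 and mt-Co3 at 0.23.

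Of the nuclear members, Ndufa3, an accessory subunit of complex I, was at 27.4, 30.2 and 37.9 FPKM in LILRB4+/+ and at 18.8, 27 and 18.7 FPKM in SCG2-/-. Its log2 fold change was -0.51 (SE 0.20) with an adjusted p of 0.392 by edgeR, and the highest SCG2-/- value came close to the lowest LILRB4+/+ value. Ndufa1 (-0.47, SE 0.24), Uqcrq (-0.42, SE 0.23) and Cox7a2 (-0.41, SE 0.23) followed on the log2 scale. The largest positive estimates by p were for Ndufv1 (0.25, SE 0.18), which binds NADH, Ndufs1 (0.16, SE 0.13) and Ndufaf2 (0.25, SE 0.23). Cox5a, a structural subunit of complex IV, had -0.54 (SE 0.20) in the deposited counts. It is the single member on which the deposited tables disagree. For replicate 1 of LILRB4+/+ the count table holds 1348 counts, and for replicate 1 of SCG2-/- 852, while the FPKM table corresponds to 852 and 1348. With the counts recovered from FPKM its log2 fold change was -0.11, with an adjusted p of 0.942 by edgeR, so no direction is given for Cox5a.

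The comparison of SCG2-/- with WT, which differ in both genes, reuses libraries of the other comparisons. Its mitochondrial median log2 fold change was -0.15 (8 of 10 negative) and its nuclear median -0.25 (72 of 79 negative), with 0.00 for all genes. 0 members passed edgeR's test with adjustment, as did 0% of all genes, and DESeq2 and limma called 0 members, against 0.932% and 0% of all genes. Recovered counts with no filter called 2 members lower, Ndufb4 and Ndufa7, against 0.142% of genes. At an unadjusted p under 0.05, 12 members were lower, all nuclear, and 0 higher, where 6.11% of all genes were lower. They were Ndufb4, Ndufa7, Ndufb6, Ndufa1, Ndufa3 and Ndufa9 of complex I, Uqcrq of complex III, Cox8a, Cox7a2 and Cox5a of complex IV, and Atp5g1 and Atp5g2, which encode the c-ring subunit of the ATP synthase. Cox5a is again subject to the exchanged values, at -0.26 with recovered counts.

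Ndufb4 was at 12.4, 19.5 and 13.6 FPKM in WT, at 9.18, 12.9 and 12 FPKM in LILRB4+/+ and at 7.37, 9.08 and 9.70 FPKM in SCG2-/-. All SCG2-/- libraries were below all WT libraries, with a log2 fold change of -0.77 (SE 0.21) and an adjusted p of 0.317 by edgeR. Ndufb4 shares 40.2% of a transcript with the annotated gene Ndufb4c, so its value is uncertain. Ndufa7 was at 29.7, 54.9 and 34.7 FPKM in WT, at 24.9, 32.9 and 32.1 FPKM in LILRB4+/+ and at 25.3, 23.9 and 22.7 FPKM in SCG2-/-. Its SCG2-/- values lay close together and below all WT values, with a log2 fold change of -0.70 (SE 0.21) and an adjusted p of 0.317. Ndufb6 had -0.67 (SE 0.24), Cox8a -0.48 (SE 0.19) and Cox7a2 -0.55 (SE 0.23) on the log2 scale. Cox8a, a small subunit of complex IV and the nuclear member with the highest mean, was at 271, 445 and 272 FPKM in WT, at 264, 325 and 319 FPKM in LILRB4+/+ and at 223, 250 and 223 FPKM in SCG2-/-. The 5 nuclear members of smallest p with positive estimates (Atp5h, Uqcrfs1, Cox7a2l, Ndufs1 and Uqcrb) were at 0.01 to 0.03 on the log2 scale, with adjusted p of at least 0.953 by edgeR. In FPKM, 9 nuclear members and mt-Co3 lay below WT without overlap, where 11.5% of all genes did, and 0 members lay above, against 11.9%. The 9 were Cox8a, Cox7b, Uqcrq, Ndufa7, Ndufv2, Ndufv3, Ndufb6, Ndufb4 and Ndufab1. mt-Co3 had a log2 fold change of -0.98 (SE 0.67) with an adjusted p of 0.491 by edgeR. The remaining mitochondrial estimates ran from -0.69 to 0.26 in this comparison. Without SCG2-/- replicate 1 the mitochondrial median was 0.12, and without replicate 3 it was -0.45. Without WT replicate 2 the nuclear median was -0.10.

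**Figure D4:**
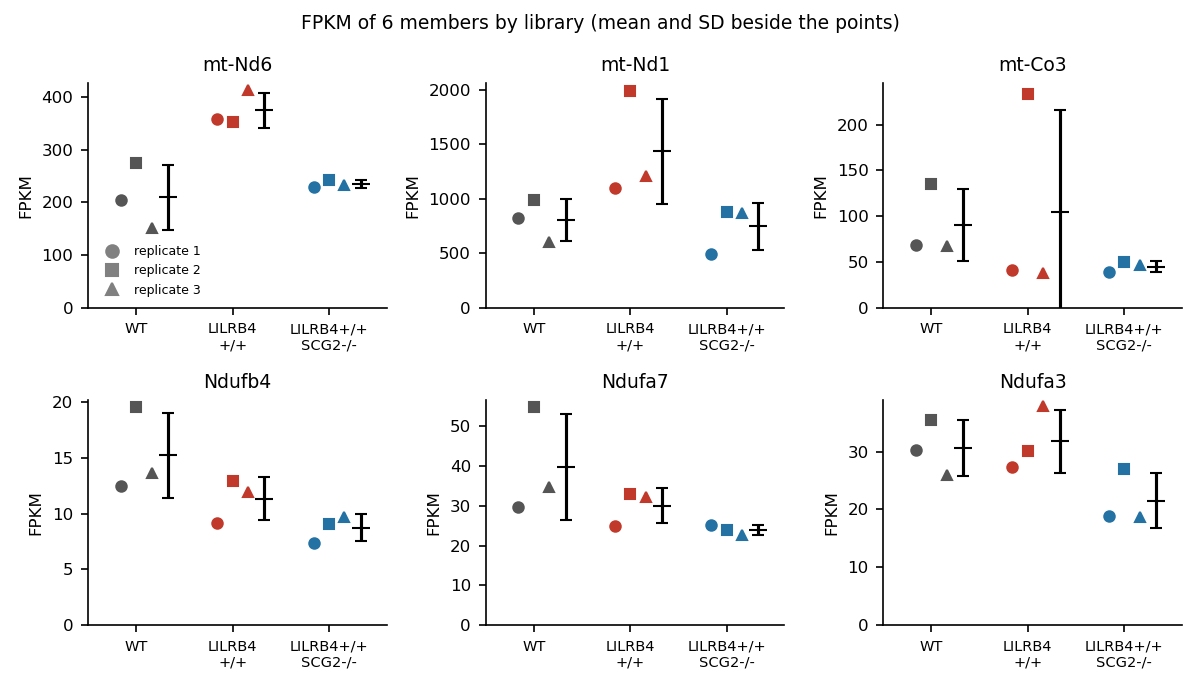
FPKM of 6 members in 9 libraries (points, shaped by replicate number) with the mean and SD of each group beside them; the axis starts at 0 and cuts the lower SD bar of mt-Co3 in LILRB4+/+. mt-Nd6 and mt-Nd1 are highest in the LILRB4+/+ libraries, mt-Co3 has a single high library, and Ndufb4 and Ndufa7 in SCG2-/- lie below all WT values.

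The nuclear members differed between libraries of the same group as well as between groups. The median log2 deviation of the 79 members from their own mean over 9 libraries was -0.03, 0.48 and 0.02 in WT, -0.33, 0.08 and 0.20 in LILRB4+/+, and 0.21, -0.15 and -0.36 in SCG2-/-. WT replicate 2 was the highest library for 58 of 79 nuclear members, SCG2-/- replicate 3 the lowest for 43 and LILRB4+/+ replicate 1 the lowest for 25. Over all 9877 genes, WT replicate 2 was the highest for 21.7%. Gene length moved along the same libraries: among the 1977 genes of the shortest of 5 equal length classes, WT replicate 2 was the highest for 48.3%. The median deviation of that class was 0.02, 0.32 and -0.03 in WT, -0.17, -0.02 and 0.09 in LILRB4+/+, and 0.11, -0.09 and -0.20 in SCG2-/-. In the longest class it was -0.03, -0.28 and 0.04, then 0.15, -0.01 and -0.08, then -0.07, 0.09 and 0.22, of opposite sign to the shortest class in 8 of 9 libraries. 58 of 79 nuclear members belong to the shortest class, with a median gene length of 1718 bases against 4664 for all genes. The part of gene length in the members' values was not tested. The mitochondrial members without a full-length identical copy, which include the partly copied mt-Nd4 and mt-Co1, did not follow this pattern. Their medians were -0.12, 0.08 and -0.61 in WT, 0.38, 0.94 and 0.37 in LILRB4+/+, and -1.15, -0.10 and 0.13 in SCG2-/-.

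**Figure D5:**
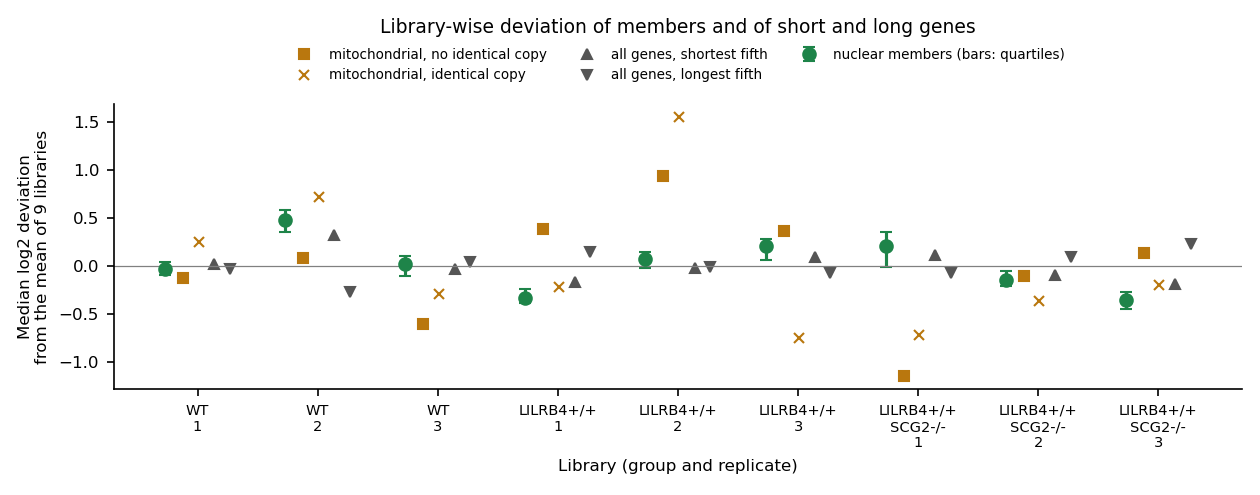
Median log2 deviation from the mean of 9 libraries for nuclear members (bars are quartiles), for mitochondrial members with and without a full-length identical nuclear copy, and for the shortest and longest of 5 length classes of all genes in the count table, by library. Nuclear members and short genes are highest in WT replicate 2 (0.48 and 0.32), and copied mitochondrial genes are highest in LILRB4+/+ replicate 2.

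Single members followed this only in part. Sdha, the flavoprotein of complex II, was at 38.2, 44.7 and 42.1 FPKM in WT, 35.7, 44.1 and 39.8 FPKM in LILRB4+/+ and 44.6, 39.4 and 38.6 FPKM in SCG2-/-. Sdhb, its iron-sulphur subunit, was at 29.5, 50.3 and 39.0 FPKM in WT, 30.8, 39.7 and 34.1 FPKM in LILRB4+/+ and 45.2, 30.9 and 25.6 FPKM in SCG2-/-. In both the groups overlapped. The membrane anchors Sdhc and Sdhd had mean levels of 25.8 and 78.0 FPKM. Cyc1, the haem-bearing cytochrome c1 of complex III, was at 46.8, 63.6 and 50.6 FPKM in WT, 37.9, 44.9 and 49.5 FPKM in LILRB4+/+ and 50.5, 45.0 and 37.8 FPKM in SCG2-/-. In FPKM, WT replicate 2 was the highest library for Sdhb, Sdhc, Sdhd and Cyc1.

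By level, the highest nuclear members after Cox8a (a mean of 288 FPKM) were Cox6a1 at 255 FPKM, the ATP synthase alpha and beta subunits Atp5a1 at 214 and Atp5b at 207, and Cox4i1 at 202. The median over nuclear members was 28.4 FPKM, and 74 had a mean of 10 or more. Complex I subunits were spread widely in FPKM, from Ndufa2 at 97.4 FPKM to Ndufab1 at 2.98 and Ndufb2 at 0.888. Their gene lengths, which equal all annotated exonic bases, are 572, 6883 and 5628 bases. Ndufab1 had a mean of 429 recovered counts and Ndufa5 of 337, yet Ndufa5 stood at 15.5 FPKM. Ranks by FPKM therefore depend in part on annotated length. The assembly factors were low, with Ndufaf8 at 10.3 FPKM, Ndufaf7 at 4.22 and Ndufaf4 at 2.79. Of the complex IV isoform sets, the ubiquitous form was the higher in each. Cox4i1 stood at 202 FPKM against 1.11 for Cox4i2, Cox6a1 at 255 against 3.6 for Cox6a2, and Cox6b1 at 127 against 1.30 for the testis form Cox6b2. Cox7a2l was at 147 FPKM and Cox7a2 at 64.8, against 2.55 for the muscle form Cox7a1, and Ndufa4 was at 20.1 against 0.734 for Ndufa4l2. Cox8a stood at 288 FPKM, Cox8b at 0.130, and Cox8c, like Cox7b2, at 0 counts in all libraries, which allows up to 0.107 to 0.200 CPM per library for counting error only. A second identifier of Atp5o was also at 0 counts. 100% of its exonic bases overlap Atp5o or Donson on the same strand. How reads in shared bases were counted is not given, so its 0 does not bear on its level. The lowest expressed nuclear members, with a mean of 1 FPKM or more, were Ndufaf4, Cox7a1, Atp5s (1.5 FPKM), Cox6b2 and Cox4i2.

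Of the 19 members outside the count table, 14 could be fitted on counts recovered from FPKM, in a fit of 15743 genes that held 103 members. The other 5 (mt-Atp8, Cox8b, Cox7b2, Cox8c and the second Atp5o identifier) had too few counts. The assembly factors Ndufaf1, Ndufaf5 and Ndufaf6, and Atp5s, were lower in all LILRB4+/+ libraries than in all WT libraries, and they and Cox6b2 are described here after their values were seen. Protein-coding genes are outside the count table because LILRB4+/+ replicate 1 or 3 had fewer than 100 recovered counts. Low LILRB4+/+ values are therefore favoured among these members, and no direction is read from them. Of the 5866 genes of that fit outside the count table, 11.8% were lower without overlap. These genes were not limited to protein-coding ones, so that share is not a matched background. Ndufaf6 was at 3.02, 5.29 and 3.54 FPKM in WT, 1.97, 2.42 and 2.02 FPKM in LILRB4+/+ and 2.88, 3.50 and 2.42 FPKM in SCG2-/-. Its log2 fold change in LILRB4+/+ against WT was -0.90 (SE 0.30) with an adjusted p of 0.154 by edgeR. Ndufaf1 had -0.60 (SE 0.24) with an adjusted p of 0.216. Cox6b2 lay higher in all LILRB4+/+ libraries (1.87, 1.60 and 1.77 FPKM) than in WT (1.51, 1.20 and 1.01 FPKM) and in SCG2-/- (0.987, 1.05 and 0.660 FPKM), with an adjusted p of 0.518 and 0.539 by edgeR. Of the same 5866 genes, 8.05% were higher in LILRB4+/+ than in WT and 4.79% lower in SCG2-/- than in LILRB4+/+ without overlap. mt-Nd3 and mt-Nd4l, both copied genes, had 0.31 (SE 0.66) and 0.45 (SE 0.66) in LILRB4+/+ against WT. 0 of these 14 passed the test in any comparison, where 0.87% of the 15743 genes passed in LILRB4+/+ against WT and 0% in both others.

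Other genes of mitochondrial gene expression and metabolism were read from lists outside the membership rule. By edgeR's test with adjustment, 0 of 76 mitochondrial ribosome genes, 0 of 11 for mitochondrial DNA transcription and replication, 0 of 19 for mitochondrial RNA processing and 0 of 13 regulators of mitochondrial biogenesis passed in any comparison. Of all 9877 genes, 2.25% passed in LILRB4+/+ against WT and 0% in both other comparisons, so only the first could give a call. In LILRB4+/+ against WT their median log2 fold changes were -0.33, -0.14, -0.11 and 0.16. Mitochondrial ribosome genes, all nuclear, were highest in WT replicate 2 for 55 of 76. 0 of 31 further assembly factors, 0 of 15 genes of cytochrome c and coenzyme Q and 0 of 19 carriers passed. Of 19 genes on the list of the tricarboxylic acid cycle 1 passed, in LILRB4+/+ against WT: Acod1, which makes itaconate from an intermediate of the cycle, rose by 1.54 on the log2 scale (SE 0.28, adjusted p = 0.0277 by edgeR).

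Markers of other cells in the sorted fraction also differed between libraries. Those of T and NK cells together were at 854, 269 and 355 CPM in WT, 1564, 281 and 1261 CPM in LILRB4+/+ and 898, 1510 and 1373 CPM in SCG2-/-, on recovered counts. LILRB4+/+ replicate 2, the library with the highest mitochondrial sum, had the second lowest T and NK sum. LILRB4+/+ replicate 1, with the next highest mitochondrial sum (12611 CPM), had the highest T and NK sum, so the 2 sums had no single order. The monocyte and M-MDSC markers were at 6945, 10616 and 8618 CPM in WT, 9007, 17212 and 9144 CPM in LILRB4+/+ and 9894, 7813 and 5369 CPM in SCG2-/-, highest in the same replicate. Neutrophil markers, 7 of 11 with a mean of 1 FPKM or more, summed to 76.5, 114 and 80.4 CPM in WT, 106, 239 and 126 CPM in LILRB4+/+ and 78.7, 71.3 and 62.4 CPM in SCG2-/-, again highest in that replicate. Macrophage markers (8 of 8 at that level) ran from 704 to 2028 CPM and colon carcinoma or epithelial markers (2 of 8) from 82.4 to 204 CPM, both highest in LILRB4+/+ replicate 2. B cell markers (3 of 6) ran from 27.8 CPM in that replicate to 1021 CPM in SCG2-/- replicate 3. Fibroblast markers (9 of 10) ran from 1590 CPM in LILRB4+/+ replicate 2 to 2952 CPM in SCG2-/- replicate 3. Dendritic cell markers (7 of 8) ran from 278 to 541 CPM, highest in LILRB4+/+ replicate 1. Endothelial markers (2 of 6), from 30.8 to 95.0 CPM, were also highest there. Mast cell and erythroid markers (3 of 7) ran from 23.6 to 160 CPM, highest in LILRB4+/+ replicate 3. None of these cell marker lists had a gene at 0 in all libraries. The part of cell makeup in the members' values was not tested.

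The promoters of nuclear members were searched for 2 short motifs in RefSeq windows of GRCm38.p6. Each window runs from 250 bases before to 50 after the gene start. 76 of 94 nuclear symbols matched a window. The core of the site of NRF1, a factor known to act on respiratory chain genes, was taken as GCGCATGC on either strand. It was found in 12 of 76 members (15.8%), in 3.93% of 17491 protein-coding genes and in 6.42% of 7848 genes of the count table. The ETS-type core CCGGAAGT was found in 5 of 76 (6.58%), against 5.69% and 9.96%. The motif and its reverse complement overlap where both strands match, as in the first 3 windows below, which come from Cox6a1 (chr5:115349097-115349136, minus strand), Atp5k (chr5:108434426-108434465, minus strand) and Ndufa11 (chr17:56717686-56717725, plus strand). The last window, from Atp5h (chr11:115419935-115419974, minus strand), holds the ETS-type core on its other strand. Capitals mark the matches. A match in such a window is a description of letters, not a bound site.
Cox6a1: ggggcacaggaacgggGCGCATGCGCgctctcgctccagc
Atp5k: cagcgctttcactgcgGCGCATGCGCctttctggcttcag
Ndufa11: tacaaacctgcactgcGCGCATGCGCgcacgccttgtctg
Atp5h: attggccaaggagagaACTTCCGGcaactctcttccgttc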

How the data were processed

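Poly-A RNA of 9 libraries was sequenced with a strand-specific kit, per the labels' protocols. HISAT2 2.0.5 and featureCounts 1.5.0-p3 were used, per the submitters' processing notes. The authors deposited raw counts for 9877 genes and FPKM values for 54532 genes. Genome build, annotation release, strand setting and the treatment of reads matching several places were not given in the sources used here. Multiplying each deposited FPKM value by gene length and a library constant returned integers within 0.01 in 100% of cases, called recovered counts. Members' coordinates matched GENCODE M21 (GRCm38) at both ends for 102 of 108. Members and gene lists were chosen with earlier results of these data known.

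The deposited counts of all 9 libraries were tested with edgeR 4.0.16 (filterByExpr with a minimum count of 10, TMM, robust quasi-likelihood fit, Benjamini-Hochberg over all genes, threshold 0.05, two-sided), without covariates. SE is the log2 fold change divided by the root of the test statistic. Alternatives were recovered counts, RLE factors, scaling without mitochondrial genes, a replicate block, fits of 2 groups, leaving out each library, DESeq2 1.42.0, and limma 3.58.1 on log2(FPKM + 1) or + 0.1 for genes with a mean FPKM of 1 or more. Some alternatives were chosen after seeing the data: mitochondrial medians by copy, and recovered counts without LILRB4+/+ replicate 2. On simulated data for LILRB4+/+ against WT with 9877 genes, the test recovered 6% of 50 genes altered 1.5-fold, 64% at 2-fold and 92% at 3-fold. Named genes were all mitochondrial members, complex II and Cyc1, isoform sets, members differing between the tables, the 5 nuclear members of smallest p in each direction, and the 5 highest and lowest by level. Copies were found with blastn against GENCODE M21 transcripts.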

Additional observations from a re-analysis of the deposited data

Results flagged for a closer look

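Signal was present in genes that the tests of the deposited counts do not cover. The 7 pseudogenes on chromosome 1 that copy mitochondrial genes summed to 107.8 CPM in the lowest library and to 525 CPM in LILRB4+/+ replicate 2, the highest, on recovered counts. The 2 mitochondrial ribosomal RNAs summed to 332 CPM in WT replicate 3 and to 1012 CPM in LILRB4+/+ replicate 3, although poly-A RNA was selected. By library they were at 573, 568 and 332 CPM in WT, 732, 707 and 1012 CPM in LILRB4+/+, and 549, 617 and 583 CPM in SCG2-/-. The LILRB4+/+ libraries were thus the 3 highest, as for the summed CPM of the mitochondrial mRNAs without a full-length identical copy. In CPM that ranking did not hold for mt-Co1 and mt-Nd5 taken singly. Mitochondrial tRNA genes reached 40.1 CPM in LILRB4+/+ replicate 2. Of the 19 members outside the count table, 16 had more than 3 recovered counts in at least 1 library. Groups of 3 libraries were not tested for outliers.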

How the results depend on the processing

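No member passed on the deposited counts of all libraries, and the exceptions among the alternatives follow. In LILRB4+/+ against WT, recovered counts with no filter called 1 member higher (mt-Nd6) and DESeq2 called 2 (mt-Nd6 and mt-Nd1). Leaving out each library in turn gave 0 to 1 member higher and 0 to 1 lower, the calls being mt-Nd6 and mt-Co3 without LILRB4+/+ replicate 2. Recovered counts with that replicate left out called 1 member lower, mt-Co3. In SCG2-/- against WT, recovered counts with no filter called 2 members lower, Ndufb4 (-0.82) and Ndufa7 (-0.75). The mitochondrial median over the copied genes alone was 0.25 in LILRB4+/+ against WT and -0.69 in SCG2-/- against WT. Without each library in turn the mitochondrial median ran from 0.47 to 0.86, from -1.10 to -0.58 and from -0.45 to 0.12 in the comparisons as ordered in the report, and the nuclear one from -0.26 to 0.04, from -0.29 to 0.01 and from -0.43 to -0.10.

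Signs turned for copied genes. In LILRB4+/+ against WT, mt-Co2 had -0.77 and mt-Atp6 -0.68 with recovered counts and LILRB4+/+ replicate 2 left out, and mt-Co3 -1.22. With limma mt-Co2 had -0.0031 and -0.0056, and mt-Co3 -0.25 and -0.26, for the pseudocounts 1 and 0.1. Leave-one-out ranges were -0.76 to 0.69 for mt-Co2, -0.67 to 0.64 for mt-Atp6 and -1.21 to 0.59 for mt-Co3. In SCG2-/- against LILRB4+/+ they were -1.39 to 0.065 for mt-Co2, -1.32 to 0.0025 for mt-Atp6 and -1.57 to 0.23 for mt-Co3, and recovered counts with LILRB4+/+ replicate 2 left out gave 0.051 for mt-Co2 and 0.22 for mt-Co3. Without WT replicate 3 mt-Co3 had -0.02 in LILRB4+/+ against WT. The cause was not tested.

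The labels give the groups the same replicate numbers but do not say that a number pairs samples. Same-numbered libraries deviated together for some pairs (r = 0.66) and against each other for others (r = -0.54). With the replicate block 0 members passed, mitochondrial medians were 0.69, -0.68 and -0.19, nuclear medians were -0.15, -0.08 and -0.24, and mt-Co3 turned to -0.18 in LILRB4+/+ against WT. Over 75 combinations of a gene and a comparison, 117 of 1500 alternative estimates changed sign, in 32 of the 75. The largest main estimate among the 32 was 1.13 in size on the log2 scale. No member had passed on the deposited counts of all libraries, so no passing call could be among them. With 3 libraries per group, differences of 1.5-fold were mostly below what the test could detect.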
